A study of Mus musculus with 6 samples.

Results

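The 10 genes described here are the Krüppel-like factors *Klf2*, *Klf3*, *Klf6*, *Klf7*, *Klf9*, *Klf10*, *Klf11*, *Klf13*, *Klf15* and *Klf16*. They were chosen by gene symbol, as family members other than *Klf4* and *Klf5*, the Krüppel-like factors best known for corneal epithelial identity. All 10 were among the 17784 genes listed in the expression table, and all 10 passed the filter on low counts. Bulk RNA-seq measured them in corneal epithelial cells of 3 control samples and 3 samples from *Prrx1-CreERT;Ptch1* f/f mice, written Ptch1Prrx1. Both groups were labelled as 10 weeks old and given 3 doses of tamoxifen, with an interval of 2 months, and the epithelium was separated with EDTA. The study's figures name the control genotype *Ptch1* f/f, and the sample labels call the controls WT and ctrl. *Ptch1* encodes the receptor that restrains Hedgehog signaling. *Prrx1-CreERT* is a tamoxifen-inducible recombinase active in keratocytes, corneal endothelial cells and, by the paper's account, further mesenchymal cells of the eye. The deletion was thus directed at cells outside the measured epithelium. The sex of each sample, and whether animals were pooled, were not given in the labels. The study calls the samples biological replicates, and the p values cover the spread between them.

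Krüppel-like factors are transcription factors that bind GC-rich and CACCC sequences through zinc fingers at their C terminus. Members differ mainly in their N-terminal parts, which recruit activators or repressors, and several members compete for the same sites. KLF6 and KLF7 are mostly activators. KLF3 recruits the corepressor CtBP, while KLF9, KLF10, KLF11, KLF13 and KLF16 share a motif that binds the corepressor Sin3A. In epithelia the family is known for control of proliferation, differentiation and the response to injury.

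The promoters of the most abundant gene, *Klf3*, and of *Klf6* and *Klf7*, which passed both call thresholds, show the letters such factors bind. Each sequence covers the 250 bases upstream of the start site, read 5′ to 3′ on the gene's strand, from RefSeq (GRCm38.p6). Capitals mark matches on either strand. The motifs marked include the GC box, GGGCGG, and the CACCC box named for its letters, both of which such factors bind. Also marked are the CCAAT box, likewise named for its letters, and the E box, whose letters CACGTG are bound by basic helix-loop-helix proteins. Further motifs, given below, were also searched for and had no match in these sequences. Motifs may overlap one another. *Klf3* lies at chr5:64803271-64803520 (+), *Klf6* at chr13:5861239-5861488 (+) and *Klf7* at chr1:64121390-64121639 (-).
Klf3: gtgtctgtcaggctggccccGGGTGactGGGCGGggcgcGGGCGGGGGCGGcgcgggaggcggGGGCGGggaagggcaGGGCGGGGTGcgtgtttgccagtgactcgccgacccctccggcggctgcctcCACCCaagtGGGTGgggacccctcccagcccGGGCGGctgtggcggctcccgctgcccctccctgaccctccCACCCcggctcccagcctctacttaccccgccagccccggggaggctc
Klf6: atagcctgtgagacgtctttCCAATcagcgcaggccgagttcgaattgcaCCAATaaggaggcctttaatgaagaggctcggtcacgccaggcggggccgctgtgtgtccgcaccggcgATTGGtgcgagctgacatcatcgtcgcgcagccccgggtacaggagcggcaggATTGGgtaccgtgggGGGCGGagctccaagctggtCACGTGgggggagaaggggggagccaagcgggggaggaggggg
Klf7: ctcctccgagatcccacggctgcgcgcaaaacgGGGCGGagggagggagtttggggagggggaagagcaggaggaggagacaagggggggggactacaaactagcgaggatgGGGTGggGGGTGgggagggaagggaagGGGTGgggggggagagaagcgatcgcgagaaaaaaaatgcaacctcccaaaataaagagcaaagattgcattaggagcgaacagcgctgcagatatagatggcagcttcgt

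RefSeq windows were matched for 8 of the 10 genes, not for *Klf10* or *Klf16*. The *Klf3* window held 6 GC boxes and 5 CACCC boxes, with a GC content of 78.4%. In *Klf6* there were 4 CCAAT boxes, 1 GC box and 1 E box, and the GC content was 64.8%. *Klf7* held 1 GC box and 3 CACCC boxes at a GC content of 59.2%. Across the 8 windows the GC content ran from 59.2% to 78.4%, and the median of 32851 RefSeq promoter windows was 52.4%. The shares over all windows that follow are not matched for GC content. A GC box was found in 7 of the 8 windows, against 32.7% of all windows, and a CACCC box in 6 of 8, against 52.0%. An E box stood in 3 of 8 (*Klf6*, *Klf11* and *Klf15*), against 6.02% of all, and a CCAAT box in 5 of 8, against 33.8%. The AP-1 letters TGANTCA were found in *Klf9* alone, against 6.75% of all. The letters TGACG, the core of the cAMP response element, stood in 4 of 8 windows (*Klf2*, *Klf9*, *Klf13* and *Klf15*), against 17.8% of all. The full element TGACGTCA, the TATAAA box and the CArG box of serum response factor were found in 0 of the 8, against 1.55%, 12.4% and 1.47% of all windows. These matches are letters in a window and not measured binding.

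The expected counts summed to between 20296741 and 20625813 per sample, so that 3 counts in a sample were worth 0.145 to 0.148 CPM (counts scaled to the library total). That floor reflects counting error alone. Of 12999 genes tested, 420 were called. On the first principal component (58.1% of the variance), the controls lay from -33.7 to -26.5, Ptch1Prrx1 replicates 2 and 3 at 18.3 and 19.1, and replicate 1 apart at 51.7. Without replicate 1, 273 genes were called. *Ptch1* (gene 19206) had 517, 659 and 682 normalized counts in controls and 390, 445 and 471 in Ptch1Prrx1 samples. The log2 fold change, here and throughout Ptch1Prrx1 over control, came to -0.51 with a standard error (SE) of 0.13. The edgeR adjusted p was 0.0401, and 0.0818 without Ptch1Prrx1 replicate 1, and the change was smaller than a call requires. Of 8 corneal epithelial markers, all tested, 1 was upregulated and 0 were downregulated, and their levels summed to 99272 to 107072 TPM in controls and 89584 to 109740 TPM in Ptch1Prrx1 samples. The gene called was *Krt14*, a basal cell keratin, at 534 to 644 TPM in controls and 2420 to 5798 TPM in Ptch1Prrx1 samples (log2 fold change 2.81, edgeR adjusted p = 0.00769). *Krt12*, the defining corneal keratin, lay at 44025 to 48396 and 37107 to 49487 TPM. *Pax6*, the master regulator of eye development, lay at 409 to 433 and 302 to 386 TPM, with no overlap (log2 fold change -0.22, edgeR adjusted p = 0.112). Stromal markers summed to 10.1 to 60.1 TPM in controls and 7.38 to 13.1 TPM in Ptch1Prrx1 samples over the 9 of 10 analysed here, with 0 of 5 tested called. The upper end in controls came from replicate 3 alone. There *Col1a2* had 26.0 TPM, against 1.69 and 0.91 TPM in control replicates 1 and 2, and *Vim* 20.8, against 2.23 and 1.71 TPM. *Pdgfra* was not higher there, at 5.58 against 6.91 and 6.50 TPM. For vascular endothelium the sums over 6 of 8 markers were 0.77 to 2.37 TPM and 1.04 to 2.17 TPM, and its defining gene *Cdh5* was at or near 0. The sum of 9 immune markers was 118 to 155 TPM in controls and 155 to 207 TPM in Ptch1Prrx1 samples, with the pan-leukocyte gene *Ptprc* at 0.02 to 0.20 TPM. Most of that sum was *Itgam*, at 67.0 to 101 and 99.5 to 129 TPM, and *Cd68*, at 45.3 to 50.1 and 48.8 to 65.5 TPM. Of 3 immune markers tested, edgeR called 0 and DESeq2 called 1, higher. With edgeR 2 of the 3 were higher at an unadjusted p under 0.05. Conjunctival markers, 4 of 5 analysed here, summed to 1408 to 2351 TPM and 2202 to 4745 TPM, and 0 of 4 were called with edgeR or limma-voom and 1, higher, with DESeq2. At an unadjusted p under 0.05, 3 of the 4 were higher with edgeR, and 2 were called higher without Ptch1Prrx1 replicate 2. Melanocyte markers summed to 8.70 to 9.94 TPM and 9.66 to 10.8 TPM. The part of these differences in the results was not tested, and in bulk samples a share of cells and an amount of RNA per cell cannot be told apart.

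In control epithelium the 10 genes spanned from *Klf3*, at 347 ± 55.5 TPM (SD, n = 3), to *Klf15*, at 0.51 ± 0.09 TPM. TPM is scaled for both depth and gene length, so levels of different genes are compared on this scale. *Klf3* was above 98.0% of all listed genes, and its lowest control value, 283 TPM, lay above the highest of *Klf5*, 281 TPM. *Klf4* was higher, at 1126 TPM on average. *Klf6* came next among the 10, at 72.9 ± 7.68 TPM, followed by *Klf16* at 37.1 ± 5.85 TPM and *Klf10* at 22.0 ± 0.94 TPM, with no overlap between neighbours in this order. *Klf11* (8.82 ± 1.04 TPM), *Klf9* (7.92 ± 1.56 TPM), *Klf13* (6.38 ± 1.21 TPM) and *Klf7* (5.67 ± 0.45 TPM) formed a run in which each gene overlapped the next. *Klf2* had 2.79 ± 0.42 TPM, above *Klf15* in every control sample and below *Klf7*. *Klf2* and *Klf15* still exceeded 39.9% and 29.1% of the listed genes.

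**Figure D1:**
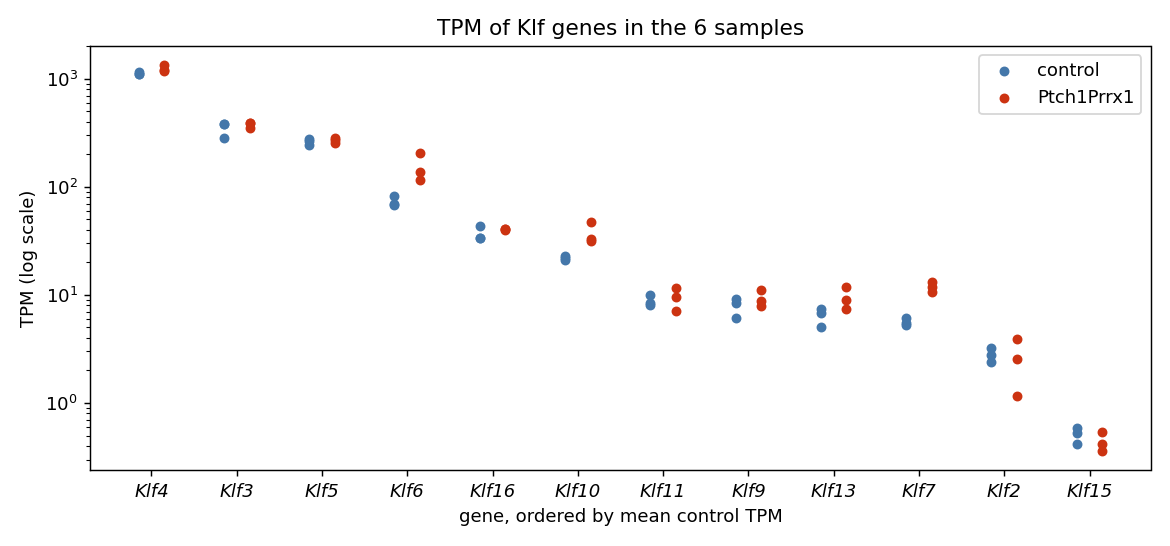
TPM, on a log scale, of the 10 genes and of *Klf4* and *Klf5* in the 3 control (blue) and 3 Ptch1Prrx1 (red) samples, 1 point per sample, with genes ordered by mean control TPM. *Klf3* sits close to *Klf5*, and the Ptch1Prrx1 points lie above the control points for *Klf6*, *Klf10* and *Klf7*.

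The 10 genes together gave 25.4%, 27.7% and 27.5% of the summed TPM of the 17 listed *Klf* genes in control replicates 1, 2 and 3. In Ptch1Prrx1 replicates 1, 2 and 3 they gave 31.1%, 28.4% and 30.6%. Their summed level was 467 to 535 TPM in controls and 638 to 665 TPM in Ptch1Prrx1 samples, so the groups did not overlap. *Klf3* made up 60.7% to 71.5% of that sum in controls and 52.2% to 60.8% in Ptch1Prrx1 samples. *Klf6* made up 12.8% to 17.5% in controls and 18.1% to 30.8% in Ptch1Prrx1 samples, where replicate 1 had the highest share.

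Among the 10 genes, *Klf6* and *Klf7* rose at least 2-fold in Ptch1Prrx1 epithelium and *Klf10* rose by less than 2-fold. None fell. By the call rule, a 2-fold change with an adjusted p no larger than 0.05, 2 of 10 were called, both upregulated, where 3.23% of all tested genes were called and 2.34% were upregulated. With the adjusted p alone, 3 of 10 passed, all higher, where 14.0% of all tested genes passed and 7.61% were higher. The groups did not overlap for these same 3 genes, each higher in Ptch1Prrx1 samples, where 39.9% of all tested genes did not overlap and 19.7% were higher. With edgeR, 0 of the 10 genes were lower at an unadjusted p under 0.05, and 0 were called lower with DESeq2 or limma-voom. The median log2 fold change of the 10 genes was 0.21, that of all tested genes was -0.00988, and 8 of the 10 genes were above 0. Without Ptch1Prrx1 replicate 1, 1 gene, *Klf7*, was called and 3 passed the adjusted p alone.

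**Figure D2:**
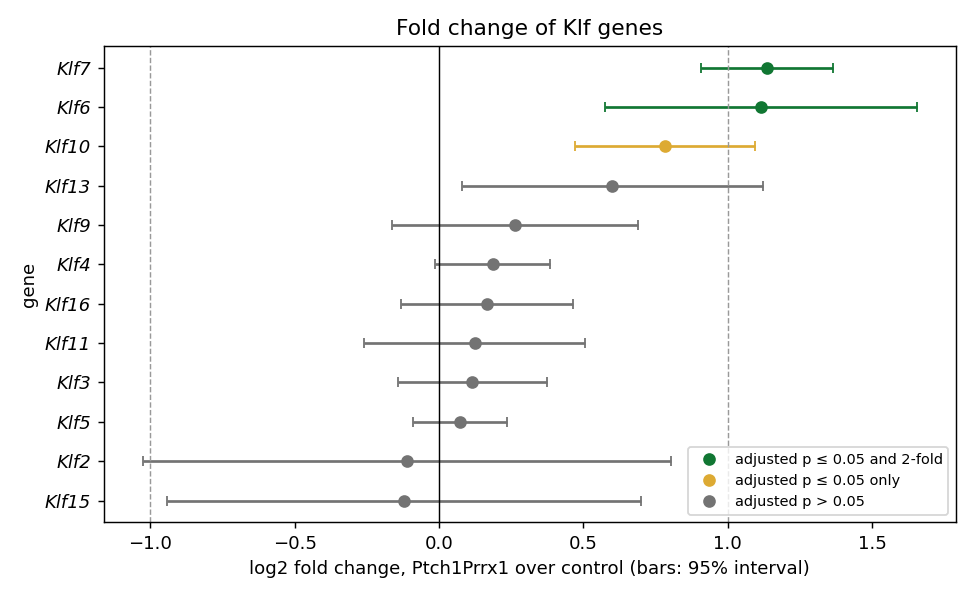
Log2 fold change of the 10 genes and of *Klf4* and *Klf5* in Ptch1Prrx1 over control samples from edgeR, with bars for the 95% confidence interval and dashed lines at a 2-fold change. *Klf7* and *Klf6* (green) passed both thresholds, *Klf10* (yellow) passed the adjusted p alone, and the others (grey) did not pass.

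*Klf7* (gene 93691), which is known for promoting axon growth and neuronal differentiation, had 294, 350 and 338 normalized counts in control replicates 1, 2 and 3. In Ptch1Prrx1 replicates 1, 2 and 3 it had 740, 659 and 761. The 3 Ptch1Prrx1 values lay close together, and each exceeded every control value. The mean was 327 ± 29.4 (SD, n = 3) in controls and 720 ± 53.8 in Ptch1Prrx1 samples, a log2 fold change of 1.14 (SE 0.10, edgeR adjusted p = 0.00329), or 2.2-fold with a 95% confidence interval of 1.88 to 2.58. It held a log2 fold change of 1.12 (adjusted p = 0.00315) without Ptch1Prrx1 replicate 1. On the TPM scale the level went from 5.67 ± 0.45 to 11.9 ± 1.29 TPM, and the mean of *Klf7*, below those of *Klf11*, *Klf9* and *Klf13* in controls, was above all 3 in Ptch1Prrx1 samples (9.43, 9.30 and 9.39 TPM). The GENCODE M21 annotation places 3 other genes over *Klf7*, 2 on the opposite strand, and 1 to 2 other genes over each of *Klf3*, *Klf9* and *Klf13*. The comparison used whole gene spans, introns included, and none of these overlapping genes was in the expression table. The 1 gene over *Klf9*, a microRNA gene, is on the same strand. Strandedness of the libraries was not given in the sources used here, and whether reads of such genes entered the counts was not tested.

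*Klf6* (gene 23849), an activator known as a wound and injury response gene and tumor suppressor, had 3322, 2684 and 2618 normalized counts in control replicates 1, 2 and 3. Ptch1Prrx1 replicates 1, 2 and 3 had 8677, 5504 and 4507. Every Ptch1Prrx1 value lay above the controls, and replicate 1 was far above the others. The mean was 2875 ± 389 in controls and 6229 ± 2178 in Ptch1Prrx1 samples, with a coefficient of variation of 13.5% and 35.0%. The log2 fold change was 1.12 (SE 0.23, edgeR adjusted p = 0.0252), or 2.17-fold with a 95% confidence interval of 1.49 to 3.15. Without Ptch1Prrx1 replicate 1, the sample apart on the first principal component, it was 0.80 (adjusted p = 0.0146), under 2-fold. The call was also lost without control replicate 1, 2 or 3, where the log2 fold change was 1.23, 1.07 and 1.05 with adjusted p = 0.0533, 0.106 and 0.0724 from edgeR.

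*Klf10* (gene 21847), also known as TGF-beta inducible early gene, encodes a repressor induced by TGF-beta. It had 676, 596 and 607 normalized counts in control replicates 1, 2 and 3 and 970, 954 and 1307 in Ptch1Prrx1 replicates 1, 2 and 3. The groups did not overlap, and replicate 3, not replicate 1, was the highest Ptch1Prrx1 sample. The mean went from 626 ± 43.3 to 1077 ± 199, a log2 fold change of 0.78 (SE 0.13, edgeR adjusted p = 0.0156), or 1.72-fold. It was 0.86 (adjusted p = 0.0146) without Ptch1Prrx1 replicate 1. The adjusted p was 0.0803 without control replicate 2 and 0.0501 without control replicate 3.

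*Klf11* (gene 194655), the close relative of *Klf10* that TGF-beta also induces, had 384, 309 and 292 normalized counts in controls and 286, 365 and 420 in Ptch1Prrx1 samples. The groups overlapped, with Ptch1Prrx1 replicate 1 below every control. Its log2 fold change was 0.12, with a 95% confidence interval of -0.26 to 0.50 and an adjusted p of 0.637 from edgeR. The interval lay within a 2-fold change either way.

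**Figure D3:**
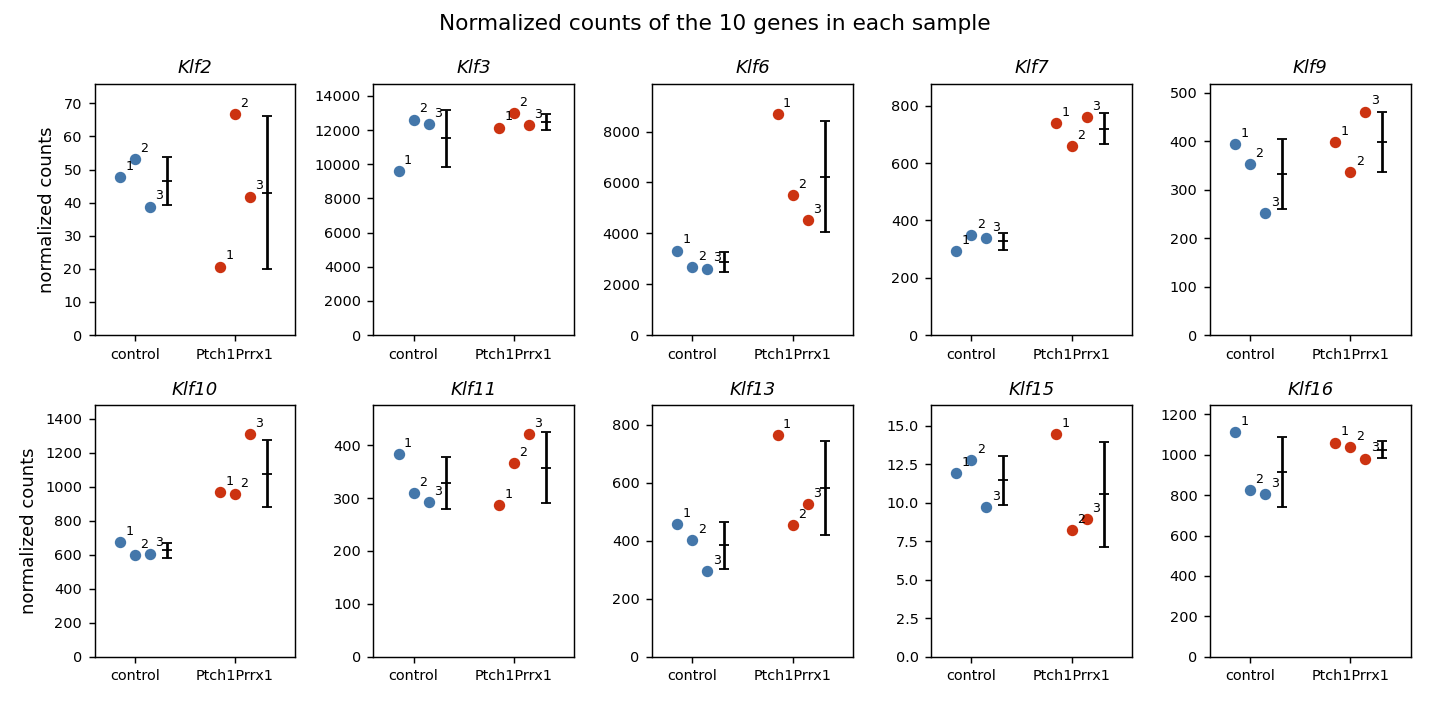
Normalized counts of the 10 genes in each of the 6 samples, numbered by replicate (control in blue, Ptch1Prrx1 in red), with the mean and SD of each group (n = 3) in black on axes that start at 0. The groups are apart for *Klf6*, *Klf7* and *Klf10*, and replicate 1 is the highest Ptch1Prrx1 sample for *Klf6* and *Klf13* and the lowest for *Klf2*.

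The other genes of the Sin3A-binding group did not pass. *Klf13* (gene 50794), known as an activator of *Ccl5* in T lymphocytes, had 456, 401 and 294 normalized counts in controls and 764, 455 and 527 in Ptch1Prrx1 samples. Control replicate 1 and Ptch1Prrx1 replicate 2 were nearly equal, so the groups overlapped. The log2 fold change was 0.60 (SE 0.22, edgeR adjusted p = 0.108), with a 95% confidence interval of 0.08 to 1.12. It was 0.36 (adjusted p = 0.236) without Ptch1Prrx1 replicate 1, and the adjusted p from DESeq2 on all samples was 0.0398.

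*Klf9* (gene 16601), a factor induced by glucocorticoids and thyroid hormone, had 394, 352 and 251 normalized counts in controls and 398, 337 and 461 in Ptch1Prrx1 samples. The groups overlapped, and the log2 fold change was 0.26 (95% confidence interval -0.16 to 0.69, edgeR adjusted p = 0.352). *Klf16* (gene 118445), a regulator of dopamine receptor genes, had 1112, 825 and 805 normalized counts in controls and 1060, 1035 and 981 in Ptch1Prrx1 samples. Control replicate 1 was the highest of all 6, and the log2 fold change was 0.17 (95% confidence interval -0.13 to 0.46, adjusted p = 0.402).

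*Klf3* (gene 16599), the CtBP-recruiting repressor, had 9587, 12619 and 12360 normalized counts in controls and 12146, 13007 and 12296 in Ptch1Prrx1 samples. Only control replicate 1 stood below the rest. The log2 fold change was 0.12 (95% confidence interval -0.14 to 0.37, edgeR adjusted p = 0.504), and without control replicate 1 it was -0.0024. The interval was among the narrowest of the 10 genes.

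*Klf2* (gene 16598), which keeps endothelial cells and T lymphocytes quiescent and is induced by shear stress, had 47.7, 53.1 and 38.8 normalized counts in controls and 20.7, 66.7 and 41.8 in Ptch1Prrx1 samples. Ptch1Prrx1 replicate 1 was the lowest of the 6 and replicate 2 the highest. Its log2 fold change was -0.11 (edgeR adjusted p = 0.870), with a 95% confidence interval of -1.03 to 0.81. *Klf15* (gene 66277), a regulator of amino acid and glucose metabolism, was near the limit of these libraries, with 12, 13 and 10 counts in controls and 14, 8 and 9 in Ptch1Prrx1 samples. The log2 fold change was -0.12 (adjusted p = 0.842), with a 95% confidence interval of -0.94 to 0.70. For *Klf2* a 2-fold decrease was inside the interval, and *Klf15* came close to it.

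Leaving out each sample in turn set the genes apart. *Klf7* was called in all 6 of these fits, with a log2 fold change from 1.06 to 1.19. *Klf6* passed the adjusted p in 3 of the 6 and *Klf10* in 4, with ranges from 0.80 to 1.30 and from 0.62 to 0.86. *Klf13* passed in 0 of the 6, with a range from 0.36 to 0.75.

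**Figure D4:**
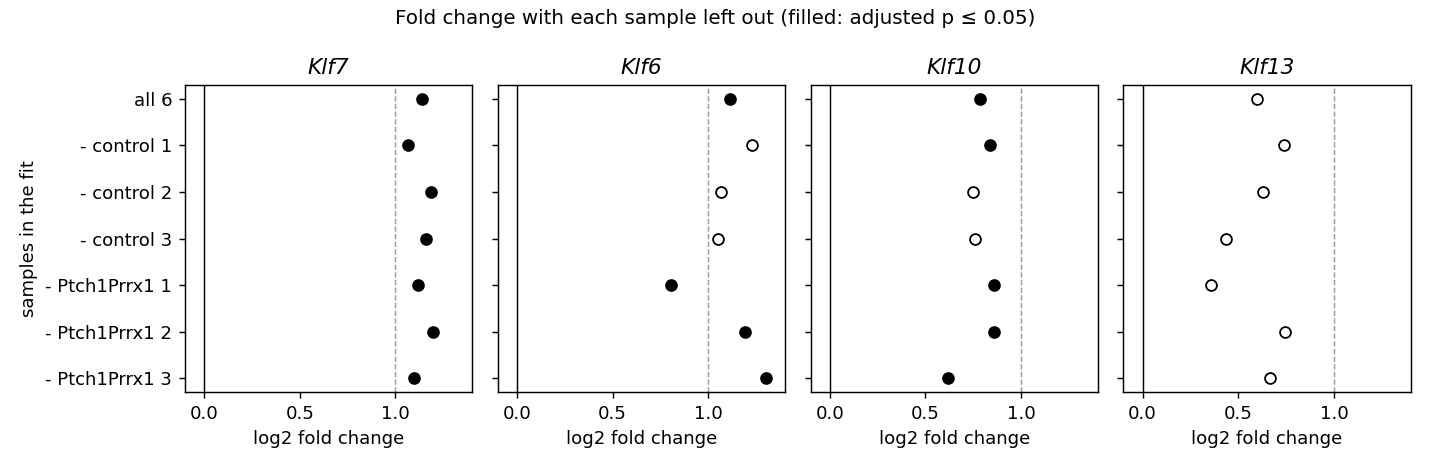
Log2 fold change of *Klf7*, *Klf6*, *Klf10* and *Klf13* from edgeR with all 6 samples and with each sample left out, with filled points where the adjusted p was at most 0.05 and a dashed line at a 2-fold change. *Klf7* stays filled and past the line in every row, and *Klf6* moves most when Ptch1Prrx1 replicate 1 is left out.

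None of the other genes of the family, which includes the related Sp factors, passed these tests. Of 17 listed, 16 were in the table, 8 were tested and 0 were called with edgeR, DESeq2 or limma-voom. With 3.23% of all tested genes called by edgeR, 0 of 8 is near the share over all genes. At an unadjusted p under 0.05 the number was 0 with edgeR, 1 with DESeq2 and 0 with limma-voom. Their median log2 fold change was 0.05. *Klf4* had 32288, 32304 and 30924 normalized counts in controls and 37126, 38845 and 32677 in Ptch1Prrx1 samples, a log2 fold change of 0.19 (edgeR adjusted p = 0.174) with no overlap. *Klf5* had a log2 fold change of 0.07 (adjusted p = 0.495), and its groups did not overlap either. *Sp6*, a factor of ectodermal development, had -0.19 (adjusted p = 0.214). The log2 fold changes were -0.08 for *Sp1*, 0.06 for *Sp2*, 0.05 for *Sp3*, 0.12 for *Sp4* and 0.02 for *Klf12*, with adjusted p from 0.392 to 0.970. *Klf1*, *Klf8*, *Klf14*, *Klf17*, *Sp5*, *Sp7*, *Sp8* and *Sp9* were not tested, and their mean level was at most 0.32 TPM in either group.

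Of 19 corepressors, coactivators and ubiquitin ligases, 1 was upregulated, 0 were downregulated and 4 passed the adjusted p alone, all higher, with a median log2 fold change of 0.06. Over all tested genes 2.34% were upregulated and 7.61% were higher at the adjusted p alone. *Fhl3*, a LIM-only cofactor of KLF3, had 55.6, 44.2 and 39.8 normalized counts in controls and 300, 170 and 143 in Ptch1Prrx1 samples. It rose with a log2 fold change of 2.13 (SE 0.31, edgeR adjusted p = 0.0108), and every Ptch1Prrx1 value exceeded the controls. With single samples left out the count called was 0 without control replicate 2 and 1 otherwise. The number passing the adjusted p was 0 without control replicate 2 and 2 to 3 without each of the others.

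The kinase cascade that induces *Klf2*, from MEK5 through ERK5 to the MEF2 factors, had 0 of 7 genes called or past the adjusted p with edgeR, DESeq2 and limma-voom. Among all tested genes edgeR called 3.23% and 14.0% passed the adjusted p, so 0 among 7 is near those shares. At an unadjusted p under 0.05 there were 2 with edgeR and 1 with each of the other tools. *Mef2a* had a log2 fold change of 0.16 (edgeR adjusted p = 0.132) and *Mapk7*, which encodes ERK5, had 0.24 (adjusted p = 0.147). The median was 0.05.

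The TGF-beta pathway, which induces *Klf10* and *Klf11*, had 3 of 13 tested genes upregulated and 0 downregulated, with 5 higher and 1 lower at the adjusted p alone and a median log2 fold change of 0.13. The shares over all tested genes were 2.34% upregulated and 7.61% higher at the adjusted p alone. *Smad7*, the inhibitory Smad, had 225, 286 and 284 normalized counts in controls and 761, 539 and 481 in Ptch1Prrx1 samples, a log2 fold change of 1.16 (edgeR adjusted p = 0.0134). *Ltbp1*, which holds latent TGF-beta in the matrix, rose by 3.68 on the log2 scale (adjusted p = 0.0146). Ptch1Prrx1 replicate 1 was the highest of the 6 for *Smad7* and *Ltbp1*. The number upregulated was 1 without Ptch1Prrx1 replicate 1, 0 without control replicate 2 and 2 to 3 without each of the others. The number higher at the adjusted p alone was 0 without control replicate 2, 3 without control replicate 3 and 4 to 5 otherwise.

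The response to glucocorticoids, which are known to induce *Klf9* and *Klf15*, had 2 of 17 tested genes upregulated, 0 downregulated and 4 past the adjusted p alone with edgeR, all higher, with a median log2 fold change of 0.39. Of all tested genes 2.34% were upregulated and 7.61% were higher at the adjusted p alone. At the adjusted p alone DESeq2 put 6 higher and 2 lower. *Errfi1*, a feedback inhibitor of the EGF receptor, had a log2 fold change of 1.23 (edgeR adjusted p = 0.00717). *Dusp1*, a MAP kinase phosphatase, rose by 2.43 on the log2 scale (adjusted p = 0.00947), and it also belongs to the immediate early genes. The classical glucocorticoid targets *Fkbp5* and *Tsc22d3*, named after their values were seen, had log2 fold changes of -0.95 (edgeR adjusted p = 0.0550) and -0.75 (edgeR adjusted p = 0.0706). Every Ptch1Prrx1 sample lay below the controls for both, but narrowly. The closest normalized counts were 1386 (control replicate 1) and 1376 (Ptch1Prrx1 replicate 2) for *Fkbp5*, whose controls reached 3200. For *Tsc22d3* they were 1833 (control replicate 3) and 1758 (Ptch1Prrx1 replicate 3), with controls up to 3713. *Zbtb16*, another classical glucocorticoid target, had a log2 fold change of -0.69 (edgeR adjusted p = 0.118). Other genes of the list went the other way. *Sgk1* and *Mt2*, also named after their values were seen, had 0.65 (edgeR adjusted p = 0.0141) and 0.60 (edgeR adjusted p = 0.025). Of the 17 tested genes, 11 had a log2 fold change above 0. The number upregulated was 1 without control replicate 2, 3 without control replicate 1 and 2 otherwise, and 1 gene was called lower without control replicate 1. The number higher at the adjusted p alone was 1 without control replicate 2 and 3 to 5 otherwise. The circadian clock, in which *Klf9*, *Klf10* and *Klf15* are known output genes, had 0 of 19 genes called with edgeR, DESeq2 or limma-voom, and 3 past the adjusted p alone with edgeR, all lower. With 3.23% of all tested genes called by edgeR, 0 of 19 is near the share over all genes. Past the adjusted p, the share over all tested genes was 14.0% in either direction and 7.61% for higher genes alone, while all 3 clock genes were lower. At an unadjusted p under 0.05, 8 were lower and 1 was higher with edgeR, and DESeq2 put 6 lower at the adjusted p alone. *Per3*, a period gene, had a log2 fold change of -0.64 (adjusted p = 0.0383), and *Tef*, a PAR leucine zipper output factor, had -0.92 (adjusted p = 0.0415). The number lower at the adjusted p alone was 5 without Ptch1Prrx1 replicate 2, 1 without Ptch1Prrx1 replicate 1 and 0 without any 1 of the other 4 samples. Leaving out Ptch1Prrx1 replicate 2 gave 3 clock genes called lower.

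Immediate early genes, which cells switch on within minutes of serum, stress or injury and with which *Klf6* and *Klf10* are often grouped, included 12 of 22 tested that were upregulated and 0 that were downregulated. At the adjusted p alone 15 of the 22 passed, all higher, and 7 did not pass. Across all tested genes 2.34% were upregulated and 7.61% were higher at the adjusted p alone. The log2 fold change was above 0 for 21 and -0.30 for *Gadd45b* (edgeR adjusted p = 0.239), with a median of 1.46. *Nr4a1*, an orphan nuclear receptor, had 28.8, 36.4 and 20.4 normalized counts in controls and 261, 311 and 223 in Ptch1Prrx1 samples (log2 fold change 3.21, edgeR adjusted p = 0.00263). *Jun*, the AP-1 subunit, had 1741, 1827 and 1767 in controls and 13440, 9411 and 6608 in Ptch1Prrx1 samples (log2 fold change 2.47, adjusted p = 0.00436). *Btg2*, an antiproliferative factor, had a log2 fold change of 1.59 (adjusted p = 0.00263). The order of the Ptch1Prrx1 samples for *Jun*, with replicate 1 highest and replicate 3 lowest, was that of *Klf6*, while *Klf10* and *Klf7* were highest in replicate 3. That order was not shared by all genes of the list, since *Nr4a1* and *Btg2* were highest in replicate 2. The number upregulated was 12 without Ptch1Prrx1 replicate 1, 5 without control replicate 2, 8 without control replicate 3 and 11 to 13 otherwise. The number at the adjusted p alone was 7 without control replicate 2 and 11 to 16 otherwise. The 15 genes that passed the adjusted p moved in the same direction as *Klf6*, *Klf7* and *Klf10*, and their part in those changes was not tested.

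Of 10 tested genes that general knowledge links to single members, 2 were upregulated and 1 was lower at the adjusted p alone, with a median log2 fold change of 0.06. The share upregulated over all tested genes was 2.34%. The upregulated genes were *Smad7*, which is on the TGF-beta list too, and *Plau*, the urokinase gene, with a log2 fold change of 1.69 (edgeR adjusted p = 0.0380). *Plau* had 282, 192 and 313 normalized counts in controls and 1331, 393 and 810 in Ptch1Prrx1 samples, again with replicate 1 highest. The count upregulated was 0 without Ptch1Prrx1 replicate 1 or control replicate 2, 2 without Ptch1Prrx1 replicate 2, and 1 without each of the others. Across the lists, genes lower at an unadjusted p under 0.05 with edgeR numbered 0 of the cofactors, 2 of the TGF-beta pathway, 3 of the glucocorticoid response, 0 of the immediate early genes and 2 of the linked genes. DESeq2 and limma-voom called 0 genes lower in each of these lists.

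The tested genes whose log2 CPM across the 6 samples lay nearest to *Klf6*, after each gene was centred on its mean, were *Nes*, *Ppp1r15a* and *Dusp14*. Their root mean square differences were 0.101, 0.110 and 0.116 on the log2 scale. *Nes* encodes the intermediate filament nestin, *Ppp1r15a* the stress-induced phosphatase subunit GADD34 and *Dusp14* a MAP kinase phosphatase. Nearest to *Klf7* were *Ifi209* (0.109), *Synpo* (0.112) and *Akna* (0.129), and nearest to *Klf10* were *Socs1* (0.0904), *Trpv3* (0.0991) and *Vill* (0.0994). *Synpo* encodes the actin-associated protein synaptopodin, *Socs1* an inhibitor of cytokine signaling and *Trpv3* a warmth-sensitive channel of keratinocytes. Among the 10 genes themselves, *Klf7* and *Klf10* were 0.253 apart, and *Klf6* was nearest to *Klf13*, at 0.310. These are descriptions over 6 samples that share their group difference.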

How the data were processed

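Bulk RNA-seq covered mouse corneal epithelial cells of 3 control and 3 Ptch1Prrx1 samples. The authors aligned clean reads with Bowtie2 2.2.5 and quantified genes with RSEM 1.2.12, and the submitters' processing notes name the build mm9. The deposited expected counts are unscaled RSEM estimates for each gene. Fractions occurred in 39.4% of the values above 0. The deposited TPM values were scaled by RSEM for gene length and depth. For the libraries, the labels name an Illumina kit and the paper describes rRNA depletion and DNA nanoballs. The paper gives an age of 2 months and the labels 10 weeks.

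Expected counts were rounded and tested with edgeR 4.0.16 (filterByExpr, TMM factors from 0.960 to 1.03, quasi-likelihood test) in R 4.3.3, with Benjamini-Hochberg adjustment over 12999 genes. A call required a 2-fold change with an adjusted p no larger than 0.05. These are the study's thresholds, and its methods name no test. Standard errors came from dividing the size of each log2 fold change by the root of its F statistic. For normalized counts, CPM based on TMM-scaled libraries was multiplied by the mean scaled library size. An exact test of 3 against 3 samples cannot give a p below 0.10. Chi-square per degree of freedom between samples of a group was 10.1 to 37.8, above sampling noise.

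The genes and lists were chosen with earlier results of these data known. Named were the 10 genes, the measured other family members, from each other list up to 3 called genes with the smallest p or, where none was called, up to 2, and the 3 nearest genes of the 3 members with the largest change. Marker genes are given by level, with *Krt14*, *Pax6*, *Fkbp5*, *Tsc22d3*, *Zbtb16*, *Sgk1*, *Mt2* and *Gadd45b* chosen outside that rule once values had been seen. A gene that meets the rule is not reported here. The likeness measure used log2 CPM with a prior count of 2. The alternatives were DESeq2 1.42.0, limma 3.58.1 (voom, or log2 TPM with a pseudocount of 1 or 0.1), other factors and filters, a replicate block and each sample left out. The FPKM and group-average columns were not used here.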

Additional observations from a re-analysis of the deposited data

How the results depend on the processing

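Of the 10 genes, 2 were called, and 1 to 2 with each sample left out. limma on log2(TPM + 1), with or without a filter at a mean of 1 TPM, called 1, *Klf6*, since *Klf7* had a log2 fold change of 0.95 on that scale, which understates low genes. With the adjusted p alone 3 genes passed, 1 to 3 with each sample left out, 2 with unfiltered log2(TPM + 1) and 4 with DESeq2, where *Klf13* was added. *Klf7* passed the adjusted p in all 17 alternatives (highest 0.0288), *Klf6* in 14 and *Klf10* in 14. *Klf6* lost its call in 4 of the 17, each with a sample left out. With single samples left out the log2 fold change ranged from -0.0024 (without control replicate 1) to 0.18 for *Klf3*, from -0.57 to 0.22 (without Ptch1Prrx1 replicate 1) for *Klf2*, from -0.41 to 0.025 (without Ptch1Prrx1 replicate 2) for *Klf15* and from -0.010 (without Ptch1Prrx1 replicate 3) to 0.26 for *Klf11*, and the direction turned in the fit named for each. None of these genes passed in any alternative. The other family members had 0 calls in all 17 alternatives. Deviations from group means showed no consistent pairing by replicate number, but with 3 samples per group they cannot exclude it. Same-numbered deviations correlated at 0.105, -0.0137 and 0.0189, and control replicate 2 correlated best with Ptch1Prrx1 replicate 3 (0.181). A fit with a replicate block called 2 of the 10 genes, 4 at the adjusted p alone, 0 other family members, 1 clock gene (lower) and 390 of all genes. Over all genes the calls numbered 420, 487 with DESeq2, 391 with limma-voom and 59 (without control replicate 2) to 430 with a sample left out. On log2 TPM they numbered 234 and 311 (pseudocounts 1 and 0.1, filtered) and 168 (unfiltered). *Klf15* had no value under the filter at 1 TPM or the filter at 10 counts in every sample. At 8 to 14 counts per sample, depth limits *Klf15*, and the interval of *Klf2* reaches past a 2-fold decrease.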

Other observations

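The ratio of expected counts to TPM of a gene, scaled to its mean over samples, moves where RSEM weighs isoforms of different length differently. For *Klf7* it was 0.919, 1.09 and 0.959 in control replicates 1, 2 and 3 and 1.00, 1.03 and 1.00 in Ptch1Prrx1 replicates 1, 2 and 3. That range of 0.172 exceeded the range of 97.5% of the genes at 1 TPM or more in every sample. For *Klf3* the range was 0.0471. For *Klf2*, *Klf6*, *Klf9*, *Klf10*, *Klf11*, *Klf13* and *Klf16* it was at most 0.00477. The control values of *Klf7* therefore differ in order between scales, with replicate 2 highest in normalized counts and replicate 3 highest in TPM, at 6.17 against 5.53 and 5.30 TPM. The Ptch1Prrx1 values, 10.7 to 13.3 TPM, lay above the controls on both scales.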
